A study of Saccharomyces cerevisiae with 12 samples.

Results

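The nuclear genes for the respiratory chain and ATP synthase of budding yeast were followed through RNA polymerase II (Pol II) chromatin immunoprecipitation in 3 PCF11 genotypes. The 39 genes were taken by systematic name from the 6650 genes of the deposited tables. They comprise 4 genes of succinate dehydrogenase, NDI1, 9 genes of the bc1 complex, 2 genes of cytochrome c, 9 genes of cytochrome c oxidase and 14 genes of ATP synthase. The rule used gene identity, not measured values, but the genes were chosen with earlier results of these data known. All 39 passed the coverage filter.

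Each genotype had 2 Pol II libraries, precipitated with a monoclonal antibody to the polymerase C-terminal repeat domain, and 2 input libraries of unprecipitated DNA, described as biological replicates. All cells were of the W303 background and MAT alpha, carried ura3-1, trp1-delta, ade2-1 and his3-11,15, and were grown in glucose. All also carried a leu2 allele, which the labels spell in another way for the strain titled Pcf11-DNL than for the others. In all 3 genotypes chromosomal PCF11 was replaced by TRP1, and the only copy lay on the plasmid pRS325-LEU2. WT cells carried V5-PCF11-MYC, Pcf11-13 cells carried pcf11-13 with no tag named, and Pcf11-DNL cells carried V5-pcf11-deltaN-linkMYC, which the series text calls Pcf11-dQN. The groups therefore differ in the tags named as well as in the allele.

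Electrons from NADH and succinate enter the yeast chain through single-protein NADH dehydrogenases such as Ndi1 and through succinate dehydrogenase, since this yeast has no proton-pumping complex I. They pass by ubiquinone to the bc1 complex, by cytochrome c to cytochrome c oxidase, and on to oxygen, and the proton gradient so made drives ATP synthase. A few core subunits are encoded in mitochondrial DNA, and the rest are nuclear. In glucose, budding yeast mostly ferments, and many of these nuclear genes are repressed to a part of their level on other carbon sources. The Hap2/3/4/5 complex and, with heme, Hap1 activate many of them. Pcf11 is a subunit of the cleavage factor that forms mRNA 3' ends, and it binds the C-terminal domain of Pol II during termination.

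Mean Pol II coverage per gene lay between 140.1 and 300.7 in the 6 libraries, and mean input coverage between 132.3 and 189.1. Across all genes the SD of log2 Pol II coverage was 0.93 in WT replicate 1 and 0.92 in Pcf11-DNL replicate 2. It lay between 1.08 and 1.19 in the other 4 libraries, with the highest value in WT replicate 2, so the WT libraries lay far apart in this range. PCF11 itself had a scaled Pol II coverage of 154 and 168 in WT, 759 and 847 in Pcf11-13, with 158 and 158 in Pcf11-DNL, and it was higher in Pcf11-13 than in WT by 2.31 (log2, limma adjusted p = 2.07e-05). Its input coverage was higher there as well, by 0.56 (limma adjusted p = 0.000227). The label of mating type could be checked: 4 alpha-cell markers had WT levels of 1.23 to 16.7 times the median gene, and 6 a-cell markers had levels of 0.196 to 0.432 times the median gene.

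Level means here the ratio of scaled Pol II to scaled input coverage, divided by that of the median gene in the same library. In WT the 39 genes had a median level of 2.19 times the median gene, between 0.878 for SDH4 and 5.14 for CYC1. Of the 39 genes, 37 lay above the median gene, against 49.9% of all genes, and 23 genes (59.0%) lay more than 2-fold above it, against 13.1% of all genes. The median level was 1.95 in Pcf11-13 and 2.12 in Pcf11-DNL. In WT, over all 17 glycolytic and fermentation enzyme genes, the median was 11.1 times the median gene. The 11 tricarboxylic acid cycle genes had a median of 1.41, the 67 genes of mitochondrial ribosomal proteins 1.19, the 46 genes of assembly and translation factors 0.875 and the 11 genes of ubiquinone synthesis 0.702. The assembly and translation factors ranged up to 1.95, so the lists overlapped with the 39 genes, and the difference between them was not tested. The order of the 39 genes was much the same in every library, with Spearman's rho between 0.945 and 0.987 for the 15 pairs of Pol II libraries. Between gene length and WT level, Spearman's rho was 0.06 over the 39 genes.

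**Figure D1:**
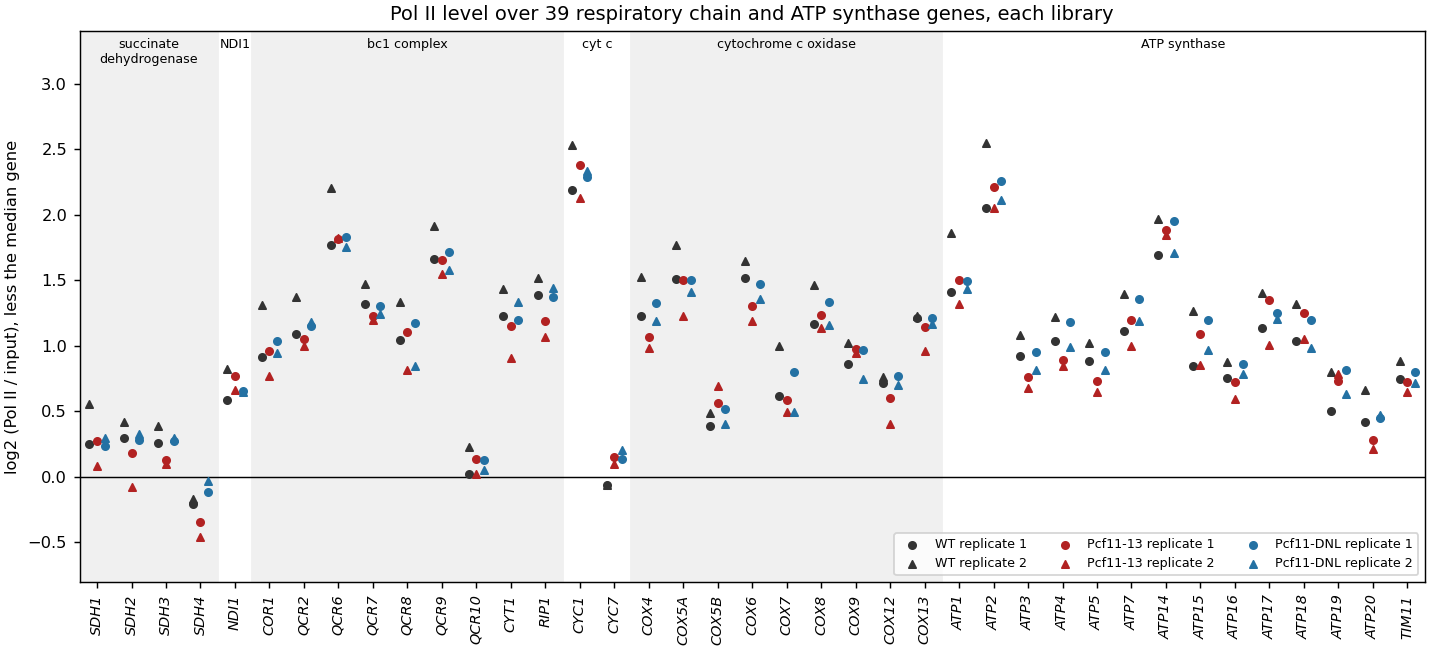
Level of each of the 39 genes in each of the 6 Pol II libraries, as log2 of scaled Pol II over scaled input less the median gene of that library; colours are genotypes, and circles and triangles are replicates 1 and 2. Most genes lie above the median gene (line at 0), CYC1 and ATP2 highest, and WT replicate 2 gives the highest value of most genes.

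Succinate dehydrogenase stood lowest of the multi-gene complexes, with a WT median of 1.27 times the median gene. SDH1, the flavoprotein subunit, was highest of its 4 genes at 1.32, and SDH4, a membrane anchor subunit, lowest at 0.878. NDI1, the NADH dehydrogenase that faces the matrix, stood at 1.63. NDE1, an external NADH dehydrogenase from the list of other electron donors, stood higher at 5.0.

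The 9 bc1 complex genes had a WT median of 2.52 times the median gene. QCR6, for an acidic subunit of the complex, was highest at 3.96, followed by QCR9 at 3.46, and QCR10 was lowest at 1.09. The value for QCR10 needs care. It is compatible with an average over 6 bases, 2.0% of its 297 bp, because its coverage multiplied by that length is whole in all 12 libraries. QCR10 has an intron, and its value may thus not describe the whole gene. QCR9 and COX5B also have introns, and which of their bases the values cover was not determined.

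Cytochrome c is encoded by CYC1, the aerobic form, and CYC7, the form favoured when oxygen is low. CYC1 (YJR048W, R64 assembly, chromosome X, 526335 to 526664) had the highest level of all 39 genes at 5.14 times the median gene, and CYC7 (YEL039C, chromosome V, 79636 to 79977) stood at 0.958. Cytochrome c oxidase showed the same order in its isoform pair. COX5A, the aerobic form of subunit V, was highest of the 9 oxidase genes at 3.11, and COX5B, its low-oxygen form, lowest at 1.36. The median of the 9 genes was 2.33.

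The 14 ATP synthase genes had a WT median of 2.13 times the median gene. In the catalytic F1 part, ATP2 (beta subunit) stood at 4.92 and ATP1 (alpha subunit) at 3.11, and ATP3 (gamma), ATP15 (epsilon) and ATP16 (delta) at 2.01, 2.08 and 1.76. Alpha and beta are present in several copies for each gamma subunit in the enzyme. ATP14, for subunit h of the stator, stood at 3.56. ATP20, for subunit g, which takes part in joining ATP synthases into dimers, was lowest at 1.45.

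The first comparison asked whether Pol II over these genes differed between Pcf11-13 and WT. Most were lower in Pcf11-13, by small amounts, and none passed the test. Of 39 genes 32 had a lower mean, and the median difference was -0.18 (log2), against -0.015 for all 6642 genes tested, of which 54% were lower. No member was called at an adjusted p of 0.05, where 1.13% of all genes were called, and the smallest adjusted p among them was 0.163 (COX12). At an unadjusted p under 0.05, 12 members were lower and 1 was higher (COX5B), where 3.73% of all genes were lower and 8.9% higher. In 16 members (41.0%) both Pcf11-13 libraries lay below both WT libraries, against 20.5% of all genes, and in 3 members both lay above, against 19.6%. The p-values rest on the spread between 2 libraries a group, pooled over all 3 genotypes and drawn towards a trend with level. The spread of the Pcf11-DNL libraries thus enters this comparison too. In a culture measured in bulk, fewer cells with polymerase on a gene and less polymerase on it in each cell cannot be told apart.

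Input coverage of the members differed between Pcf11-13 and WT by a median of -0.005, between -0.09 and 0.08, and the median difference of Pol II over input was -0.17.

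**Figure D2:**
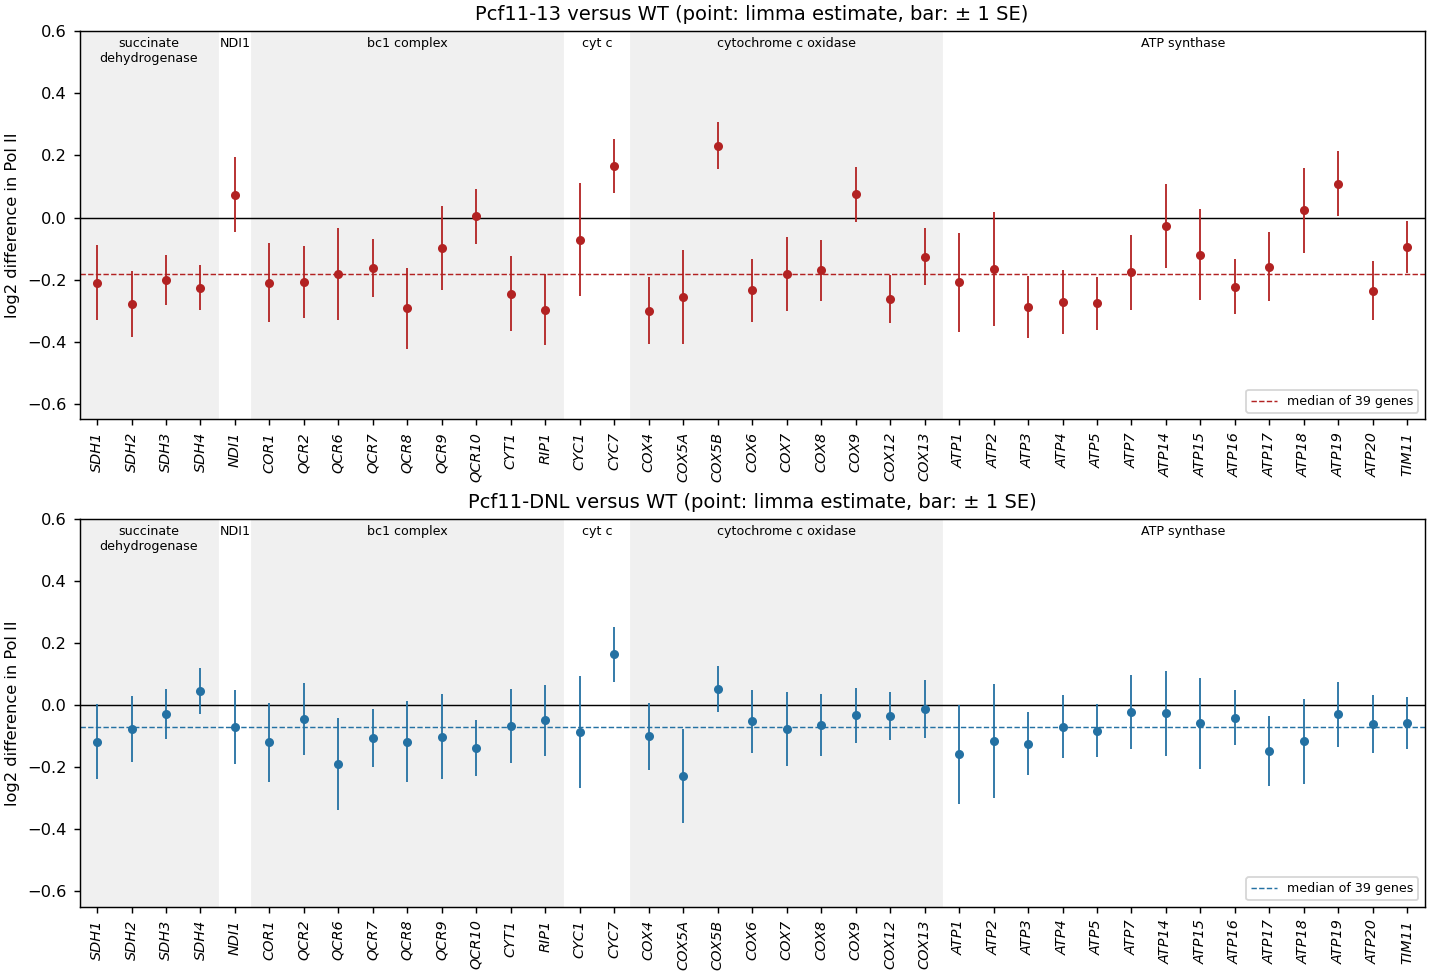
Difference in Pol II between each mutant and WT for the 39 genes (log2, limma estimate with a bar of 1 SE either way, 2 libraries a group), with a dashed line at the median of the 39. In Pcf11-13 the estimates lie between -0.30 and 0.23 with COX5B and CYC7 highest, and in Pcf11-DNL between -0.23 and 0.16; none of them was called.

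All 4 succinate dehydrogenase genes had lower means in Pcf11-13, with a median of -0.22. SDH2, the iron-sulfur subunit (YLL041C, chromosome XII, 53131 to 53931), had a scaled Pol II coverage of 156 and 179 in WT and of 151 and 125 in Pcf11-13. It differed by -0.28 ± 0.11 (SE; limma adjusted p = 0.309). SDH4 (YDR178W, chromosome IV, 817950 to 818495) had 100.4 and 103 in WT and 89.8 and 84.1 in Pcf11-13, a difference of -0.23 ± 0.07 (limma adjusted p = 0.225). In both genes the groups did not overlap, narrowly for SDH2, where Pcf11-13 replicate 1 was just under WT replicate 1, and more widely for SDH4. SDH3, the other membrane anchor subunit, had 139 and 154 in WT and 133 and 122 in Pcf11-13, all lower in the mutant, with -0.20 ± 0.08. SDH1 had 143 and 181 in WT and 151 and 128 in Pcf11-13, so its groups overlapped. NDI1 (YML120C), the electron entry from matrix NADH, had 181 and 227 in WT and 231 and 197 in Pcf11-13. Its groups overlapped, and the difference was 0.07 ± 0.12 (limma adjusted p = 0.846).

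In the bc1 complex 8 of 9 genes had lower means in Pcf11-13, with a median of -0.21 and a range from -0.30 to 0.00. RIP1, the Rieske iron-sulfur protein (YEL024W, chromosome V, 107260 to 107907), had a scaled coverage of 341 and 392 in WT and of 319 and 277 in Pcf11-13. Both Pcf11-13 libraries lay below both WT libraries, and the difference was -0.30 ± 0.11 (limma adjusted p = 0.314). QCR6 had 408 and 549.9 in WT and 423 and 413 in Pcf11-13. Its Pcf11-13 libraries were alike and lay between the WT libraries, of which replicate 2 was high. QCR8, a small subunit beside cytochrome b, had 240.3 and 286 in WT and 234 and 196 in Pcf11-13, without overlap. CYT1, cytochrome c1, differed by -0.25, COR1 and QCR2, the core proteins, by -0.21 each, QCR8 by -0.29 ± 0.13, QCR7 by -0.16 and QCR9 by -0.10. QCR10, with 145 and 168 in WT and 160.3 and 152 in Pcf11-13, had a difference of 0.00, read with the limit on its value given above.

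In cytochrome c oxidase 7 of 9 genes had lower means in Pcf11-13, with a median of -0.18. COX4, a subunit needed for the enzyme to form (YGL187C, chromosome VII, 149704 to 150171), had a scaled coverage of 245 and 296 in WT and of 226 and 211 in Pcf11-13. The groups did not overlap, and the difference of -0.30 ± 0.11 was the lowest estimate among the 39 genes (limma adjusted p = 0.282). COX12, for subunit VIb (YLR038C, chromosome XII, 224921 to 225172), had 196 and 203 in WT and 171 and 162 in Pcf11-13. WT libraries were close to each other in this gene, both stood clear of Pcf11-13, and the difference was -0.26 ± 0.08 (limma adjusted p = 0.163). Which bases of COX12 this coverage describes was not determined. COX6, for subunit VI, had 332 and 371 in WT and 310 and 287 in Pcf11-13, without overlap, and differed by -0.23 ± 0.10. COX7 differed by -0.18, COX8 by -0.17 and COX13 by -0.13, and COX9, with 215 and 236 in WT and 237 and 238 in Pcf11-13, by 0.07.

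In ATP synthase 12 of 14 genes had lower means in Pcf11-13, with a median of -0.17. ATP5, the OSCP subunit that ties F1 to the stator (YDR298C, chromosome IV, 1058176 to 1058814), had a scaled coverage of 215 and 235 in WT and of 192 and 180 in Pcf11-13. ATP4, the b subunit of the stator, had 260 and 295 in WT and 233 and 225 in Pcf11-13. ATP3, the gamma subunit of the rotor, had 241 and 274 in WT and 219 and 202 in Pcf11-13. In these 3 genes both Pcf11-13 libraries lay below both WT libraries. The differences were -0.28 ± 0.09 for ATP5, -0.27 ± 0.10 for ATP4 and -0.29 ± 0.10 for ATP3, with limma adjusted p-values of 0.2, 0.305 and 0.266.

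The catalytic subunits of highest level showed a wider spread between WT libraries. ATP1 had 317 and 444 in WT and 347 and 304 in Pcf11-13, and ATP2 had 498 and 703 in WT and 557 and 499 in Pcf11-13. Both pairs of groups overlapped, with WT replicate 2 above all others, and the differences were -0.21 ± 0.16 for ATP1 and -0.17 ± 0.18 for ATP2. ATP20 had 150.1 and 175 in WT and 145 and 130.3 in Pcf11-13, all lower in the mutant, a difference of -0.24 ± 0.09 (limma adjusted p = 0.341). Of the small membrane subunits, ATP18 (subunit i/j), with 243 and 314 in WT and 301 and 262 in Pcf11-13, and ATP19 (subunit k), with 189 and 226 in WT and 223 and 223 in Pcf11-13, were the 2 genes of the complex whose means were not lower. Their differences were 0.02 ± 0.14 and 0.11 ± 0.11, and their groups overlapped. The other 6 genes, ATP7, ATP14, ATP15, ATP16, ATP17 and TIM11, lay between -0.22 (ATP16) and -0.03 (ATP14).

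Both low-oxygen isoforms had estimates of the opposite sign to those of the aerobic isoforms in Pcf11-13, although that of CYC1 was 0.07 without WT replicate 2 and 0.10 without Pcf11-13 replicate 2. COX5B (YIL111W, chromosome IX, 155222 to 155765) had a scaled Pol II coverage of 162 and 170 in WT, 191 and 199 in Pcf11-13, with 177 and 167 in Pcf11-DNL. Pcf11-13 libraries lay above all others, and the difference from WT was 0.23 ± 0.08 (limma adjusted p = 0.221). COX5A had 393 and 504 in WT, 412 and 336 in Pcf11-13, with 392 and 367 in Pcf11-DNL. Its groups overlapped in Pcf11-13, where the difference was -0.26 ± 0.15 (limma adjusted p = 0.551). CYC7 had 131 and 135 in WT, 152 and 146 in Pcf11-13, with 137 and 161 in Pcf11-DNL, higher than WT in every mutant library. Its differences were 0.17 ± 0.09 in Pcf11-13 and 0.16 ± 0.09 in Pcf11-DNL (limma adjusted p = 0.5 and 1). CYC1 had 655 and 801 in WT, 775 and 613 in Pcf11-13, with 673 and 691 in Pcf11-DNL, and its groups overlapped.

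The ratio of the aerobic to the low-oxygen isoform within a library needs no scaling between libraries, but it can still vary with the range of coverage in that library. The range was widest in WT replicate 2, which gave the highest ratio of both pairs. What part the range had in the ratios was not tested. COX5A exceeded COX5B 2.41-fold and 2.95-fold in WT, 2.14-fold and 1.69-fold in Pcf11-13, and 2.21-fold and 2.19-fold in Pcf11-DNL. All 4 mutant libraries lay below both WT libraries, and over input they did too, with 2.17-fold and 2.43-fold in WT and 1.45-fold to 2.01-fold in the mutants. CYC1 exceeded CYC7 4.97-fold and 5.91-fold in WT, 5.07-fold and 4.17-fold in Pcf11-13, and 4.87-fold and 4.26-fold in Pcf11-DNL. Here Pcf11-13 overlapped WT, and Pcf11-DNL lay just below it. These ratios were not tested. A ratio shows unequal values of its genes, not which of them changed. Without COX5B and CYC7, 32 of the remaining 37 genes were lower in Pcf11-13, with a median of -0.20.

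**Figure D3:**
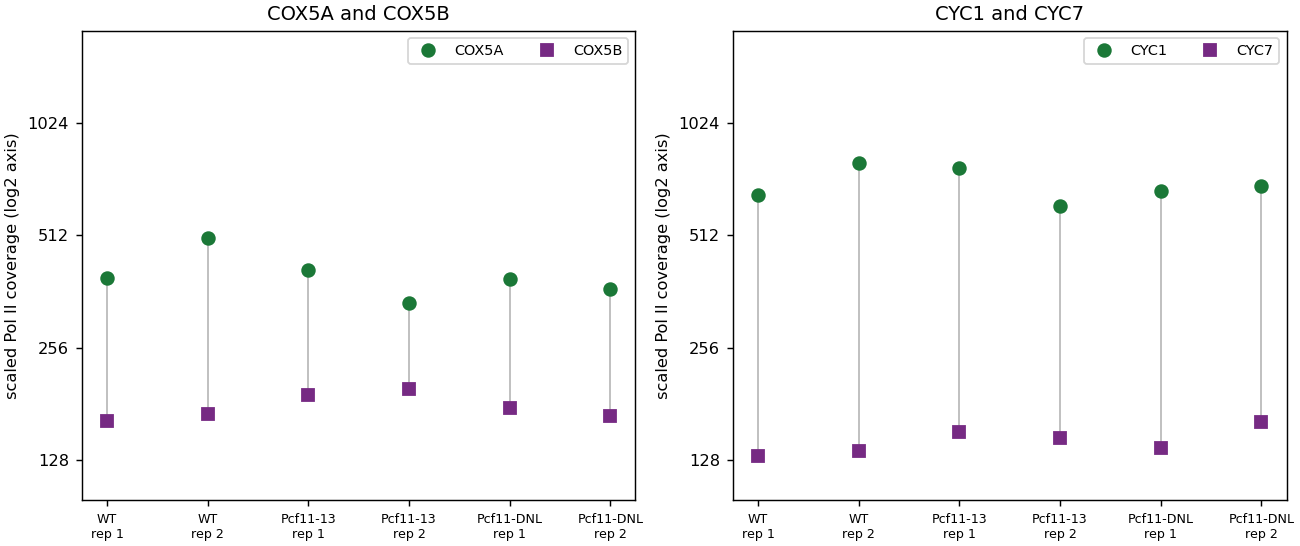
Scaled Pol II coverage (log2 axis) of the aerobic isoforms COX5A and CYC1 (circles) and of the low-oxygen isoforms COX5B and CYC7 (squares) in the 6 Pol II libraries; a grey line joins the genes of a pair. The line for COX5A and COX5B is longest in WT replicate 2 (2.95-fold) and shortest in Pcf11-13 replicate 2 (1.69-fold).

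The size of the difference depended on which libraries were set against each other. The median scaled coverage of the 39 genes was 240.3 and 282 in WT, 231 and 211 in Pcf11-13, with 248 and 226 in Pcf11-DNL. WT replicate 2 was highest and Pcf11-13 replicate 2 lowest. The median over all genes lay between 122 and 124, because the scaling sets most genes level between libraries. All differences are thus relative to most genes, and a change of Pol II over all genes alike would not be seen. Pcf11-13 replicate 1 had a lower value than WT replicate 1 in 16 of 39 genes, with a median difference of 0.04, and a lower value than WT replicate 2 in 35, with a median of -0.24. Pcf11-13 replicate 2 was lower than WT replicate 1 in 28 genes (median -0.12) and than WT replicate 2 in 36 (median -0.38). Without WT replicate 1 the median difference in Pcf11-13 was -0.31 and 17 members were called, all lower, and without WT replicate 2 it was -0.04 and COX5B alone was called, as higher. The range of coverage over all genes differed between both WT libraries in the same direction as the level of these genes. What part it had in the differences was not tested. The 17 glycolytic and fermentation genes, whose median level was above that of the respiratory genes, had a median difference of 0.01 in Pcf11-13 versus WT, with 7 lower. In Pcf11-DNL versus WT it was -0.11, with 16 lower, and in Pcf11-DNL versus Pcf11-13 it was -0.21, with 14 lower.

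**Figure D4:**
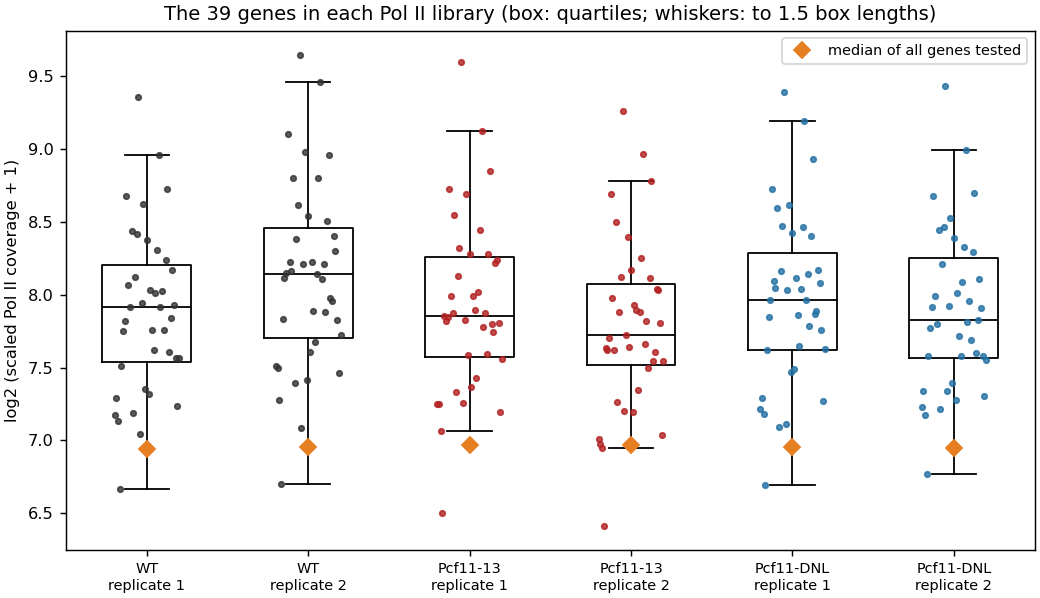
Scaled Pol II coverage of the 39 genes (log2 of coverage + 1) in each library, with a box for the quartiles, a line at the median, whiskers to the last value within 1.5 box lengths, and a diamond at the median of all 6642 genes tested. The boxes of WT replicate 2 and Pcf11-13 replicate 2 are the highest and the lowest, and the scaling holds the diamonds nearly level.

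The second comparison asked whether the genes differed between Pcf11-DNL and WT. The means of 36 of 39 genes were lower in Pcf11-DNL, by a median of -0.07, against 50.3% of genes lower and a median of 0.00 over all genes. Values of other lists lay to one side as well: 16 of 17 glycolytic and fermentation genes had lower means, with a median of -0.11, as were 4 of 4 alpha-cell markers (median -0.20), while 6 of 6 a-cell markers were higher (median 0.14), and the difference between these lists and the 39 genes was not tested. None of the 39 genes was called, where 0.0151% of all genes were called, and no member had an unadjusted p under 0.05, where 1.22% of all genes were higher and 0.391% lower at that p. COX5A was the one member with both Pcf11-DNL libraries below both WT libraries, against 7.6% of all genes. Its gap was very narrow, with 391.8 in Pcf11-DNL replicate 1 and 392.7 in WT replicate 1. Its estimate was the lowest, at -0.23 ± 0.15. CYC7 was the one member with both Pcf11-DNL libraries above both WT libraries, against 9.09% of all genes. By complex, 9 of 9 bc1 genes were lower (median -0.10), 14 of 14 ATP synthase genes (median -0.07), 8 of 9 oxidase genes (median -0.05) and 3 of 4 succinate dehydrogenase genes (median -0.05). QCR6, with 422 and 409 in Pcf11-DNL, differed by -0.19 ± 0.15, and ATP1, with 352 and 319.9, by -0.16 ± 0.16. SDH4, with 102 and 108, differed by 0.05 ± 0.07. For each of these 5 genes the limma adjusted p was 1.

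This count of lower genes also depended on the libraries. Pcf11-DNL replicate 1 was lower than WT replicate 1 in 2 of 39 genes and lower than WT replicate 2 in 37. Between the libraries of narrow range, Pcf11-DNL replicate 2 was lower than WT replicate 1 in 17 genes, with a median difference of 0.01. Between the libraries of wider range, Pcf11-DNL replicate 1 differed from WT replicate 2 by a median of -0.13. Without WT replicate 2, 7 of 39 genes were lower, with a median of 0.05. Without WT replicate 1 the median was -0.18, and ATP1, COX5A and SDH1 were called, at -0.40, -0.41 and -0.29.

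The third comparison set the mutants against each other. It uses the mutant libraries of the first and second comparisons again. Of 39 genes 29 were higher in Pcf11-DNL than in Pcf11-13, with a median of 0.09 against 0.00 for all genes, of which 51.2% were higher. The median was 0.02 without Pcf11-13 replicate 2, 0.19 without Pcf11-13 replicate 1, 0.05 without Pcf11-DNL replicate 1, 0.14 without Pcf11-DNL replicate 2 and 0.20 with quantile normalization. None was called, where 0.166% of all genes were called. At an unadjusted p under 0.05, SDH4 and COX12 were higher and COX5B was lower, where 3.39% of all genes were higher and 7.62% lower. Both Pcf11-DNL libraries lay above both Pcf11-13 libraries in 17 genes (43.6%), against 29.1% of all genes, and below in 5 genes, against 26.7%.

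By complex, 4 of 4 succinate dehydrogenase genes were higher in Pcf11-DNL (median 0.19), 7 of 9 oxidase genes (median 0.11), 6 of 9 bc1 genes (median 0.09) and 12 of 14 ATP synthase genes (median 0.06). SDH4 had 89.8 and 84.1 in Pcf11-13 against 102 and 108 in Pcf11-DNL, a difference of 0.27 ± 0.07 (limma adjusted p = 0.284). COX12 had 171 and 162 against 200 and 190.4, a difference of 0.23 ± 0.08 (limma adjusted p = 0.34). In both genes the Pcf11-DNL libraries stood beside those of WT and clear of Pcf11-13. RIP1, with 354 and 353 in Pcf11-DNL, differed by 0.25 ± 0.11, and ATP4, with 281 and 248, by 0.20 ± 0.10. COX5B was lower in Pcf11-DNL by -0.18 ± 0.08 (limma adjusted p = 0.435). NDI1, with 196 and 190 in Pcf11-DNL, differed by -0.15 ± 0.12, and ATP18, with 270.2 and 240, by -0.14 ± 0.14. ATP18 overlapped between the mutants, and NDI1 did not.

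The other genes of respiratory metabolism had medians nearer to 0 than the 39 genes in Pcf11-13, and none of them was called. The 46 assembly and translation factors had a median difference of -0.01, with 24 lower, and the 67 mitochondrial ribosomal protein genes -0.01, with 37 lower. The 11 tricarboxylic acid cycle genes had -0.04, with 7 lower, and the 11 ubiquinone synthesis genes -0.08, with 8 lower. The difference between these lists and the 39 genes was not tested. These lists also had lower median levels in WT, from 0.702 to 1.41 times the median gene, against 2.19 for the 39 genes. They were not matched for level. The 5 ATP and phosphate carriers had a median of -0.01, with 3 lower, and the 3 ATP synthase regulators 0.16, with 1 lower. PET9, the carrier of the lowest estimate and the main ADP/ATP carrier, which exports the ATP that the synthase makes, had a scaled coverage of 496 and 648 in WT and 492 and 455 in Pcf11-13. Its difference was -0.26 ± 0.16 (limma adjusted p = 0.56), and its value in WT replicate 1 was close to that in Pcf11-13 replicate 1. PIC2, of the same list, differed in the other direction, by 0.26 ± 0.09 (limma adjusted p = 0.28). INH1, the inhibitor of the ATP hydrolysis reaction of ATP synthase and the lower gene of its list, had 200 and 252 in WT and 204 and 164 in Pcf11-13, with -0.29 ± 0.13 (limma adjusted p = 0.413). The other regulators of ATP synthase, STF1 and STF2, differed by 0.19 and 0.16. MRPL4, a mitochondrial ribosomal protein, had 145 and 154 in WT and 192 and 181 in Pcf11-13, and its difference of 0.32 ± 0.08 was nearest to a call among these lists (limma adjusted p = 0.0931).

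**Figure D5:**
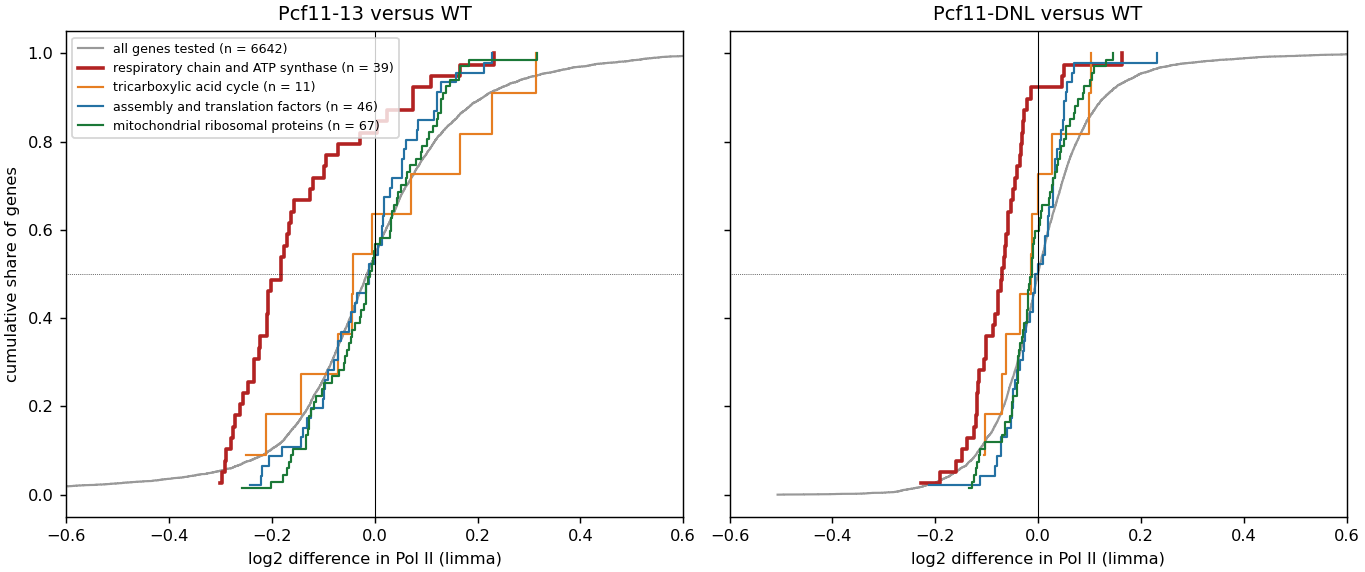
Cumulative share of genes by log2 difference in Pol II from WT (limma estimates) for Pcf11-13 on the left and Pcf11-DNL on the right: all 6642 genes tested, the 39 respiratory chain and ATP synthase genes, 11 tricarboxylic acid cycle genes, 46 assembly and translation factors and 67 mitochondrial ribosomal protein genes. The curve of the 39 genes crosses its middle at -0.18 on the left and -0.07 on the right, and the curves of the other lists run near that of all genes.

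Of 10 regulators of these genes, 6 had higher and 4 had lower means in Pcf11-13, with a median of 0.03, and none was called. HAP4, the activating subunit of the Hap2/3/4/5 complex and the one that glucose controls, had a scaled coverage of 310.1 and 385 in WT, 374 and 336 in Pcf11-13, with 382 and 331 in Pcf11-DNL, all overlapping. Its WT level was 2.98 times the median gene, above HAP2 at 0.771, HAP3 at 0.934 and HAP5 at 1.09. ROX1 and MOT3, repressors of low-oxygen genes, stood at 2.93 and 2.48. ROX1 had 363 and 409 in WT and 354 and 352 in Pcf11-13, a difference of -0.13 ± 0.11 (limma adjusted p = 0.69), with both Pcf11-13 libraries below WT. HAP1, an activator of CYC1 and CYC7 that needs heme, stood at 0.888 with a difference of 0.03 ± 0.09. HAP3 had 135 and 128 in WT and 119 and 116 in Pcf11-13, a difference of -0.15 ± 0.07 (limma adjusted p = 0.413).

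Position relative to neighbouring genes gave no clear division of the 39 genes. The libraries do not separate strands, and no member overlaps another gene of the RefSeq R64 table. In 22 genes the upstream neighbour is on the same strand, so that its 3' end faces the promoter of the member, and 19 of these were lower in Pcf11-13, with a median of -0.19. In 15 genes the upstream neighbour is divergent, and 11 of these were lower, with a median of -0.18. ATP1 follows a tRNA gene and COX13 a noncoding RNA gene, and their orientation was not used. Downstream, 20 genes are followed by a gene on the same strand (17 lower, median -0.21) and 19 face a convergent gene (15 lower, median -0.16). The shortest gap was 59 bp, between COX6 and the gene YHR050W-A upstream of it. COX5B lies 375 bp downstream of HOS4 on the same strand, and HOS4 differed by 0.09 in Pcf11-13. Coverage between these genes was not examined, and whether polymerase from HOS4 enters the value of COX5B was not tested. CYC7 faces UTR2 across 179 bp, and UTR2, with a WT level of 6.49 times the median gene, differed by 0.20 (limma adjusted p = 0.797). MIN10, with a WT level of 10.0 times the median gene, lies 352 bp downstream of QCR6 on the same strand. Whether reads of UTR2 enter the value of CYC7, or reads of MIN10 that of QCR6, was not tested.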

How the data were processed

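Pol II and input libraries of 3 genotypes, 2 each, were used as deposited. The authors' deposited values are read coverage per gene, a signal that is not scaled to depth. Of tools and builds, deepTools 3.1.2, BWA 0.7.17-r1188, Trimmomatic 0.38 and sacCer3 are listed, without roles, per the submitters' processing notes. The way of averaging along a gene is not given in the sources used here. Read depth per value is thus unknown, and no counting interval is given. Of 10 members of at most 300 bp, 3 (QCR8, ATP15 and ATP19) gave whole numbers in all 12 libraries when multiplied by their full length. An average over the whole gene would do so. These 3 were among 4 such genes with W for the strand in their systematic names, and of 6 with C there were 0. ATP18 gave whole numbers at 144 of its 180 bp and QCR10 at 6 of 297 bp. COX7, COX8, COX9, COX12 and TIM11 fitted no length up to 300 bp, so which bases their values cover was not determined.

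Groups and replicate numbers came from the sample titles. Coverage was divided by trimmed-mean (TMM) factors (trims of 30 percent on the log ratio and 5 percent on the mean level). A gene had to reach a coverage of 10 in 2 or more libraries, which left 6642 genes for Pol II. In R 4.3.3, limma 3.58.1 with its trend option was fitted to log2(scaled coverage + 1) of the 6 Pol II libraries together, with Benjamini-Hochberg adjustment over all genes and a threshold of 0.05. Differences are on this log2 scale, which understates those of low genes; errors are SE. Levels are log2 of Pol II over the input of the same genotype and number, less the median gene, averaged over 2 libraries. Input and Pol II over input were fitted in the same way.

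Replicate numbers were not treated as pairs: deviations from the group mean in same-numbered Pol II libraries had correlations of -0.085 (WT and Pcf11-13), -0.888 (WT and Pcf11-DNL) and -0.075 (both mutants). Libraries of WT and Pcf11-DNL with unlike numbers thus deviated together. The fit takes libraries as independent, so its SEs and p-values for these groups include that shared deviation. The fit was tested on simulated data for 6642 genes. For Pcf11-13 against WT it recovered 38% of 50 genes changed 1.3-fold and 82% of 50 changed 1.5-fold. For Pcf11-DNL against WT it recovered 30% and 70%. It also called 5 and 8 unchanged genes in these comparisons. The simulated noise was independent between genes and libraries, whereas the real libraries shared deviations. Its SD followed a smooth curve on mean level, so differences in spread between genes of like level were left out. These rates may therefore not hold for the real data. The members differed by less than 1.3-fold.

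The members and lists were chosen with earlier results of these data known. Libraries are given for the isoform pairs, NDI1, the members of highest and lowest WT level and of largest difference each way in each complex, and up to 10 with the smallest unadjusted p; some other members and list genes were named after their values were seen. Names and coordinates come from the RefSeq R64 table, in which 5976 of the 6650 IDs matched. Promoter motifs were planned and not analysed here, since no sequence was used.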

Additional observations from a re-analysis of the deposited data

How the results depend on the processing

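The median level of the 39 genes in WT stayed between 1.03 and 1.26 (log2) in every alternative run, against 1.13. Of 1155 recomputed differences of the 21 members of the naming rule, 43, in 15 members, passed the threshold and 68 others moved by more than 1 SE. The sign was the opposite in 50, in 16 members, and 17 of these came without WT replicate 2, where ATP1 and ATP2 in Pcf11-13 versus WT stood at 0.04 and 0.08. The median differences moved by no more than the spread between libraries (SD 0.12) except for Pcf11-13 versus WT, where leaving out 1 library gave -0.31 to -0.04 against -0.18. That SD was computed from the same libraries, so a move within it does not show a stable value. In Pcf11-DNL versus WT the median changed sign without WT replicate 2. Leaving out a WT library leaves 1, which is then assumed to vary like the other groups.

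Members called in Pcf11-13 versus WT, 0 above, were 6 with library totals, 7 with quantile normalization, 19 without both libraries of narrow range (WT replicate 1 and Pcf11-DNL replicate 2) and 0 to 17 on leaving out 1 library. In Pcf11-DNL versus WT leaving out 1 library gave 0 to 3, and in Pcf11-DNL versus Pcf11-13 it gave 0 to 2, as did fitting only the groups compared (2). Members lower in Pcf11-13 were 25 to 36 on leaving out 1 library, and in Pcf11-DNL versus WT 7 to 36. In Pcf11-DNL versus Pcf11-13, members lower numbered 10, and 6 with library totals, 6 with quantile normalization and 6 to 18 on leaving out 1 library. The cause of these shifts was not tested.

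Genes called over the whole table moved more. In Pcf11-13 versus WT they were 75, and 214 with a coverage of at least 50, 139 with input subtracted, 292 with library totals, 32 with no filter, 10 with no trend, 205 with only the groups compared, 278 with quantile normalization, 618 without both libraries of narrow range and 8 to 1215 on leaving out 1 library (8 without Pcf11-13 replicate 2, 9 without Pcf11-13 replicate 1, 189 and 242 without Pcf11-DNL replicates 1 and 2, 432 without WT replicate 1 and 1215 without WT replicate 2). In Pcf11-DNL versus WT they were 1, and in the same order 3, 2, 8, 0, 0 and 0, then 105 without the narrow libraries and 0 to 401 on leaving out 1 library. In Pcf11-DNL versus Pcf11-13 they were 11, and 46 with a coverage of at least 50, 119 with library totals, 5 with no filter, 2 with no trend, 666 with only the groups compared, 5 with quantile normalization, 404 without the narrow libraries and 1 to 679 on leaving out 1 library.

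A replicate block gave 107, 3 and 20 called genes in the comparisons taken in that order, and 0 called members in each. The crossed pairing of WT and Pcf11-DNL, added after the data were seen, gave 20 called genes in Pcf11-DNL versus WT.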

Other observations

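GUT2, the mitochondrial glycerol 3-phosphate dehydrogenase, had a scaled Pol II coverage of 86.8 and 82.6 in WT, 107 and 93.6 in Pcf11-13, with 88.6 and 99.6 in Pcf11-DNL, so every mutant library lay above WT; its difference in Pcf11-13 was 0.24 ± 0.09 (limma adjusted p = 0.333). PIC2, a carrier of copper and phosphate, had 139 and 122 in WT, 162 and 152 in Pcf11-13, with 144 and 163 in Pcf11-DNL, also above WT in every mutant library, with 0.26 ± 0.09 in Pcf11-13 (limma adjusted p = 0.28). COX26, a small subunit of cytochrome c oxidase that is not among the 39, had 88.6 and 56.6 in WT and 44.7 and 59.5 in Pcf11-13, which overlapped, with -0.45 ± 0.27 (limma adjusted p = 0.552). FBA1, a glycolytic enzyme gene, had a difference of -0.42 in Pol II and of -0.43 in the input of Pcf11-13.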
